A study of Homo sapiens with 12 samples.

Results

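Interferon-stimulated genes are the genes that a cell switches on when interferon, or viral nucleic acid, is sensed. A fixed list of 43 of them was taken by gene symbol from the 58288 genes of the deposited RNA-Seq tables, and all 43 were found. The libraries came from 2 established human T-cell acute lymphoblastic leukemia (T-ALL) lines, HPB-ALL and KOPTK1. Per the labels, each line was infected with pLKO.1 lentivirus carrying either an shRNA against SHQ1, a chaperone that assembles box H/ACA ribonucleoproteins, or a control shRNA against GFP, and was kept in puromycin at 2 μg/mL for 48 h; the study's methods place this selection after a first 48 h of culture. There were 3 shSHQ1 and 3 Control libraries in each line, 12 in all, so lentiviral infection and puromycin were common to every library and no group of uninfected cells was among them.

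The values described here are averages over the 6 libraries of a line, with the shSHQ1 and Control libraries pooled. The columns of single libraries carry numbers that no label names, and they were not used. The effect of SHQ1 depletion on these genes, the spread between replicates and the depth of each library are therefore not reported, and no difference below has a test or an error. Each level is a mean RPKM (reads scaled to exon length and to library size), derived from the average log2 CPM (counts scaled to library size) that the authors deposited for each line and from the exon length of the gene. Since the 2 tables were normalized separately, a difference between the lines also holds any difference in their scaling. Since shSHQ1 and Control libraries were pooled, it also holds any response to SHQ1 depletion that differed between the lines. The averages cannot separate these from a difference between the control cells. In RNA from bulk cultures, fewer expressing cells and less RNA per cell cannot be told apart.

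Type I interferon binds the receptor chains IFNAR1 and IFNAR2, and the kinases JAK1 and TYK2 then phosphorylate transcription factors of the STAT family. STAT2 joins IRF9 in a complex that binds a short DNA motif, the interferon-stimulated response element, in the promoters of responding genes. The induced proteins detect foreign RNA, block its translation, degrade it, trap virus particles or feed back on the pathway. Many of these genes also have a basal level without added interferon, and they can respond to introduced vectors or to double-stranded RNA of the cell itself, which is why they serve as a check in experiments that use shRNA or disturb splicing.

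The response element was looked for in the RefSeq promoter windows of GRCh38.p14, from 250 bases before to 50 bases after an annotated start, 300 bases in all. It was written as GAAA, any 2 bases, GAAA and was searched on both strands, with matches allowed to overlap each other; on the opposite strand it appears as TTTC, any 2 bases, TTTC. A window was present for 34 of the 43 genes, and 23 of these 34 (67.6%) held at least 1 match. Among all 27305 genes with a window the share was 4.38%, and among 15843 protein-coding genes it was 4.16%. A single window held 2 or more matches in 13 of the 34 genes and never more than 3. A second motif, the gamma-activated site, written as TTC, any 3 bases, GAA, was found in 9 of the 34 (26.5%), against 8.98% of protein-coding genes. Windows were not given for IFIT2, IFITM2, MX2, OAS2, OASL, DHX58, IRF7, USP18 and TRIM22.

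The following stretches show the element in genes whose levels differed by over 1 on the log2 scale between the lines (MX1, IFI44L and HERC5 toward KOPTK1, IFI27 toward HPB-ALL), in 3 classical interferon targets (ISG15, IFIT1 and BST2), and in a promoter shared by a pair of members (DTX3L). Each runs 5′ to 3′ on the strand of the gene, and the capitals mark the match.
ISG15: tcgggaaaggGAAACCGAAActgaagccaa
IFIT1: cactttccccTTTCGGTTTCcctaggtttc
BST2: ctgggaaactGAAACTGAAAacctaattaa
MX1: gagcagaaatGAAACCGAAActgaattgtc
IFI44L: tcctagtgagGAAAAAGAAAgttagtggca
HERC5: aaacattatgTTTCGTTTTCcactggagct
IFI27: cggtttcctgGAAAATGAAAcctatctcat
DTX3L: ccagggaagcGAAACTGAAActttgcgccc

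With the first transcribed base counted as 1 and the base before it as -1, the ISG15 match (chr1:1013380-1013409, plus strand, for the printed stretch) began at -107, and a second match began at -113 and overlapped it. The IFIT1 stretch (chr10:89392510-89392539, plus strand) held its marked match from -103 to -94, and another match began at -116. The BST2 stretch (chr19:17405735-17405764, minus strand) held its marked match from -124 to -115, and another match began at -130. In MX1 (chr21:41420559-41420588, plus strand) the marked match lay inside the transcribed part, from base 12 to base 21 of that transcript. Another MX1 match, on the opposite strand, began at -196 from a different annotated start. The IFI44L stretch of 30 bases occurred 2 times in its window, at chr1:78620365-78620394 and at chr1:78620274-78620303 (plus strand), with matches that began at -73 and -164. The marked HERC5 match (chr4:88457035-88457064, plus strand) began at -74, and others began at -125 and -119. The marked IFI27 match (chr14:94110631-94110660, plus strand) began at -95, and another began at -108. DTX3L and PARP9 are transcribed away from each other, and 1 element (chr3:122564322-122564351) served both windows: it began at -6 on the DTX3L side and at -41, on the opposite strand, on the PARP9 side. In 22 of the 23 genes at least 1 match began within the 150 bases before a start.

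Interferon-stimulated genes were broadly transcribed in both T-ALL lines. A mean RPKM of at least 1 was reached by 39 of the 43 (90.7%) in HPB-ALL and by 41 (95.3%) in KOPTK1, while 61.2% of the 19011 protein-coding genes reached it in HPB-ALL and 62.3% in KOPTK1. OASL, a catalytically inactive relative of the 2-5A synthetases, was the single gene below 1 in both lines, with 0.660 in HPB-ALL and 0.602 in KOPTK1. The median level of the 43 genes was 7.52 in HPB-ALL and 12.1 in KOPTK1, beside 3.75 and 3.78 for protein-coding genes. A level of 10 or more was seen for 17 of the genes in HPB-ALL and for 27 in KOPTK1. Levels within the list spanned a wide range, from 0.0581 (IFI44L) to 138 (IFI16) in HPB-ALL and from 0.602 (OASL) to 108 (IFI16) in KOPTK1.

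**Figure D1:**
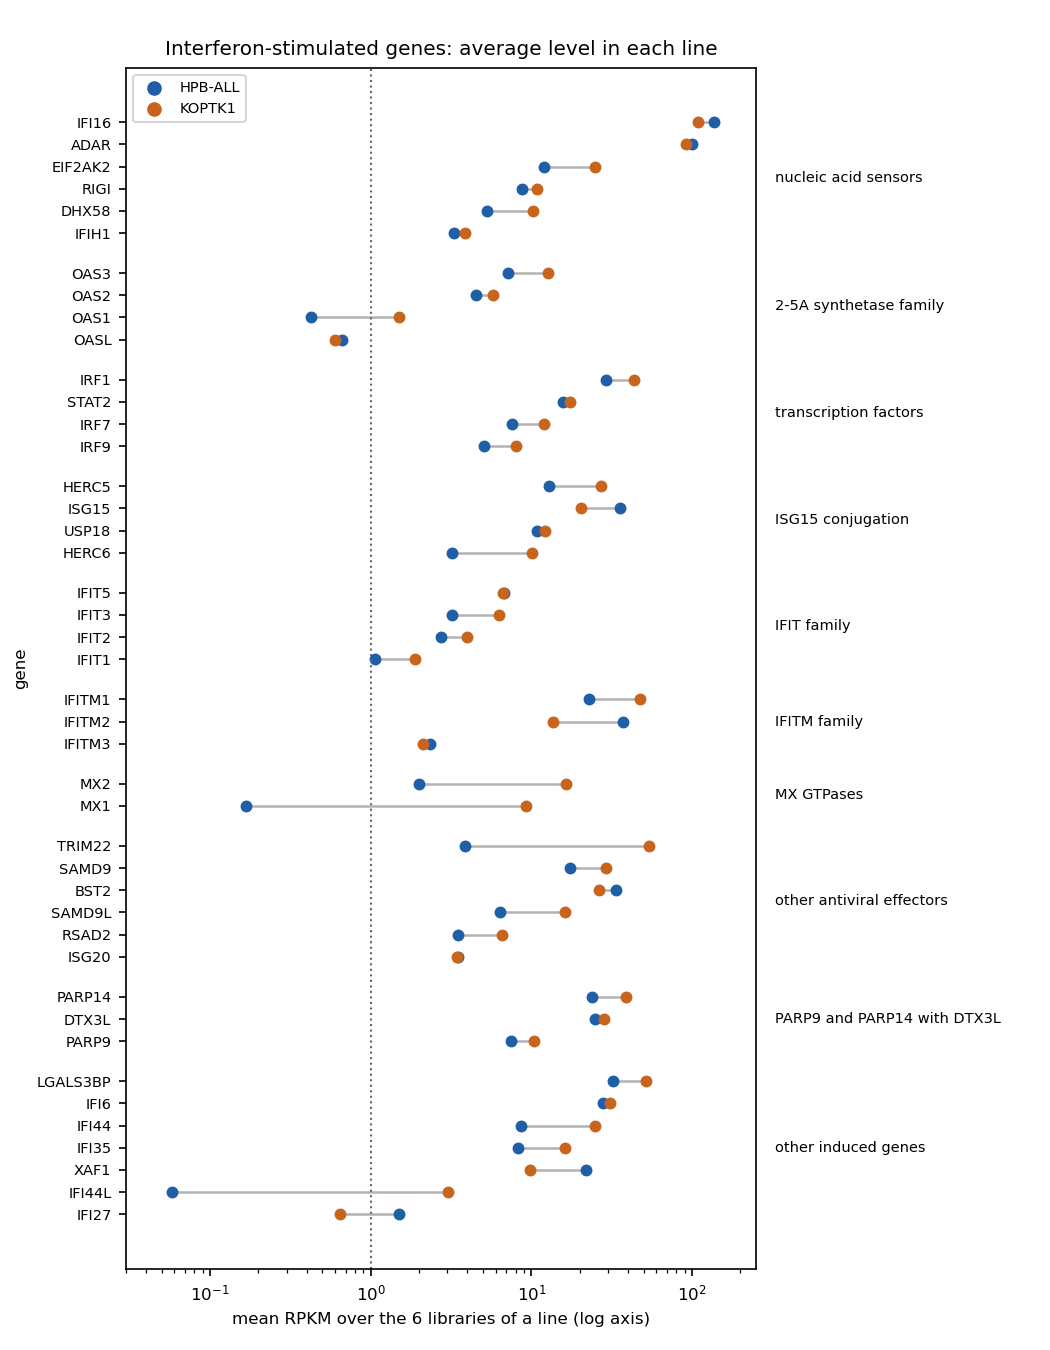
Average level of each interferon-stimulated gene in HPB-ALL (blue) and KOPTK1 (orange), grouped by role. The x axis is the average level of a line (mean RPKM, 6 libraries) on a log scale, the dotted line is at 1, and no error bars are drawn because the deposited average has no spread. MX1 and IFI44L sit below 1 in HPB-ALL and at 9.21 and 3.04 in KOPTK1, whereas IFI16 and ADAR lie near 100 in both.

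The lines differed most at 4 genes, all with the higher average in KOPTK1. MX1, a dynamin-like GTPase that blocks influenza virus (ENSG00000157601.13, chr21:41420515-41459214), had a mean RPKM of 0.167 in HPB-ALL and 9.21 in KOPTK1, a 55.3-fold difference. IFI44L (ENSG00000137959.15, chr1:78620403-78646145), a gene of the interferon signature with a little understood product, stood at 0.0581 and 3.04, a 52.3-fold difference. TRIM22, a RING-type ubiquitin ligase with antiviral activity (ENSG00000132274.15, chr11:5689689-5710863), stood at 3.86 in HPB-ALL and 54.0 in KOPTK1, a 13.97-fold difference. MX2, a nuclear pore-associated restriction factor of HIV-1 (ENSG00000183486.12, chr21:41361943-41408943), stood at 2.00 and 16.5, an 8.27-fold difference. The 12128 protein-coding genes that reached 1 in either line were ordered from the most KOPTK1-high. MX1 ranked 10, IFI44L 15, TRIM22 104 and MX2 156. MX1 and IFI44L entered this ordering through KOPTK1 alone, so the minimum fixed their direction and their ranks are description only. If the lowest value in each table is what a prior count of 2 gives to a gene without reads, the mean library held 41.0 M assigned reads in HPB-ALL and 29.9 M in KOPTK1. Under that assumption the HPB-ALL averages stand for about 25.6 reads per library for MX1 and 12.0 for IFI44L, so that these folds rest on few reads in HPB-ALL.

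A difference of over 1 on the log2 scale was found in 14 of the 42 genes that reached the minimum in at least 1 line. Of these, 11 (26.2%) were higher in KOPTK1, where the background was 8.11% of 25478 genes and 5.71% of protein-coding genes. The other 3 (7.14%) were higher in HPB-ALL, where the background was 3.81% of genes and 4.06% of protein-coding genes. MX1, IFI44L and OAS1 reached the minimum through KOPTK1 alone and IFI27 through HPB-ALL alone. The direction of these 4 differences, though not a size over 1, was thus fixed by the minimum. Among the 38 genes that reached it in both lines, 8 (21.1%) were over 1 higher in KOPTK1 and 2 (5.26%) in HPB-ALL, beside 2.81% and 3.08% of 11346 protein-coding genes. Nearest to the limit lay EIF2AK2 inside, with a size of 1.05, and IFI35 outside, at 0.98. By any amount, 32 of the 42 (76.2%) were higher in KOPTK1, as were 54.4% of all genes and 43.4% of protein-coding genes. The median log2 difference (HPB-ALL minus KOPTK1) was -0.67 for the list, -0.05 for all genes and 0.07 for protein-coding genes. These shares are descriptions of 1 average per line and carry no test.

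**Figure D2:**
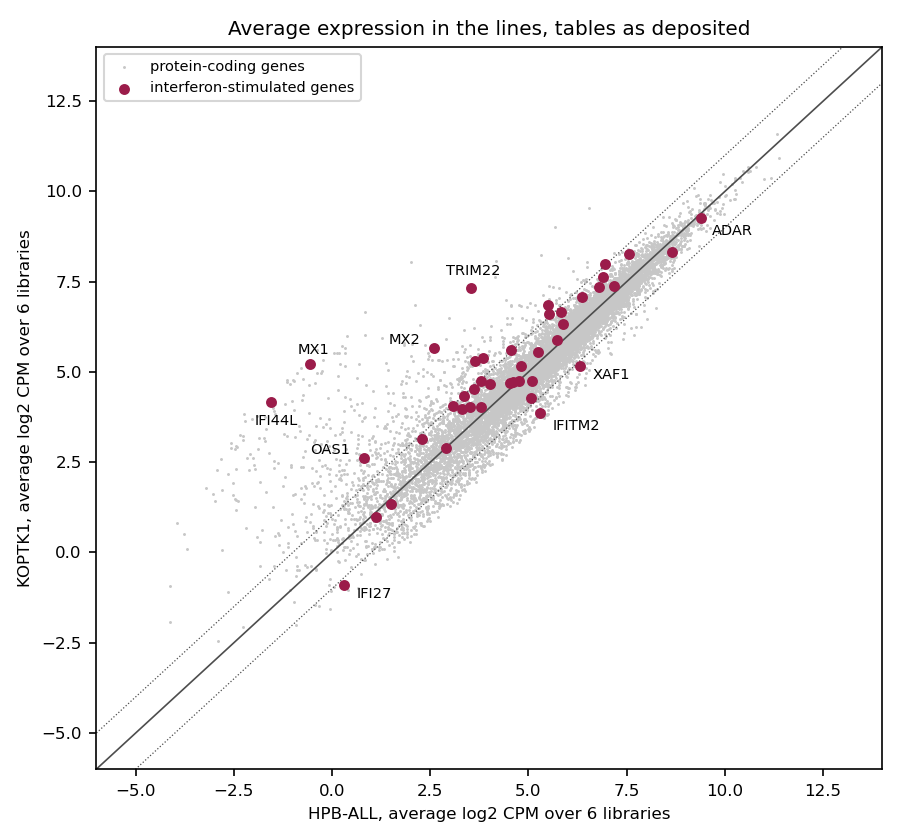
Average log2 CPM over the 6 libraries in HPB-ALL (x axis) and KOPTK1 (y axis) for protein-coding genes (grey) and the interferon-stimulated genes (red). The solid line marks equal values and the dotted lines a difference of 1. The 11 genes above the upper dotted line include MX1, IFI44L, TRIM22, MX2 and OAS1, and the 3 below the lower one are IFITM2, IFI27 and XAF1.

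The sensors of nucleic acid and the enzymes that act on double-stranded RNA included the most abundant genes of the list, and 1 of the 6 differed by over 1 between the lines. IFI16, a DNA sensor of the nucleus and cytoplasm, had a mean RPKM of 138 in HPB-ALL and 108 in KOPTK1. ADAR, which edits adenosine to inosine in double-stranded RNA and so keeps the cell's own RNA from being sensed, had 100 and 91.4. Both lay above 98% of protein-coding genes in each line, at percentiles from 98.2 to 99.0. The cytoplasmic RNA helicases were moderate and close between the lines, with RIGI at 8.75 and 10.8 and IFIH1 (MDA5) at 3.30 and 3.87. DHX58 (LGP2), their regulator, stood at 5.28 in HPB-ALL and 10.2 in KOPTK1. EIF2AK2 (PKR), the kinase that stops translation when it binds double-stranded RNA, was 2.07-fold higher in KOPTK1, at 24.7 against 12.0.

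The 2-5A synthetases make the short oligoadenylates that switch on RNase L. OAS1 was 3.50-fold higher in KOPTK1, with a mean RPKM of 0.428 in HPB-ALL and 1.496 in KOPTK1. OAS3, the family member most needed for RNase L activation in human cells, stood at 7.17 and 12.8, and OAS2 at 4.52 and 5.77. The 3 genes lie side by side on chromosome 12, and the size of the log2 difference was graded along them, from OAS1 (-1.81) through OAS3 (-0.83) to OAS2 (-0.35).

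The transcription factors of the response were present in both lines, each with a higher average in KOPTK1 and none by over 1. IRF1 had a mean RPKM of 29.2 in HPB-ALL and 43.3 in KOPTK1. IRF7, the amplifier of type I interferon production, stood at 7.57 and 11.9. STAT2 and IRF9, which act in 1 complex, stood at 15.7 and 17.5, and at 5.04 and 8.05. IRF9 shares 93.5% of its exon bases with an overlapping gene of the annotation, and IRF1 shares 15.3%, in part with IRF1-AS1, so their reads could have been split or left out by the counting and their levels are uncertain.

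ISG15 is a ubiquitin-like protein that is attached to other proteins after interferon. It was 1.74-fold higher in HPB-ALL, at a mean RPKM of 35.6 against 20.4. HERC5, the ligase that attaches it in human cells, went the other way and was 2.11-fold higher in KOPTK1, at 27.2 against 12.9. Its neighbor HERC6 stood at 3.18 in HPB-ALL and 10.04 in KOPTK1, a 3.15-fold difference. USP18, which removes ISG15 and dampens the receptor, was nearly level at 10.8 and 12.1, although near-identical copies of USP18 elsewhere in the genome make its count uncertain.

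The IFIT proteins bind viral RNA that lacks the marks of host mRNA. Their levels were low to moderate, and none of the 4 differed by over 1. IFIT1 stood at a mean RPKM of 1.06 in HPB-ALL and 1.90 in KOPTK1, IFIT2 at 2.76 and 3.97, and IFIT3 at 3.19 and 6.27. IFIT5 was level at 6.74 and 6.65, and the sign of its small difference (0.02) turned to -0.04 when the tables were centered on the median of protein-coding genes.

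The IFITM proteins sit in membranes and hinder the fusion of virus with the cell. This family diverged within 1 locus on chromosome 11. IFITM2 was 2.70-fold higher in HPB-ALL (mean RPKM 36.9 against 13.7), while IFITM1, 4110 bases away, was 2.08-fold higher in KOPTK1 (47.2 against 22.7). IFITM3 was lower than both, with 2.33 in HPB-ALL and 2.11 in KOPTK1. These paralogs are similar in sequence, so reads may have been assigned to the wrong one, and IFITM3 shares 23.7% of its exon bases with an overlapping gene.

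Among the other antiviral effectors, TRIM22 has been given above. SAMD9L, a growth-restraining and antiviral protein, was 2.52-fold higher in KOPTK1 (16.1 against 6.38), and its paralog SAMD9 stood at 17.4 in HPB-ALL and 28.9 in KOPTK1. RSAD2 (viperin), a radical SAM enzyme that makes a chain-terminating nucleotide, stood at 3.49 and 6.52. BST2 (tetherin), which holds budding virus at the cell surface, stood at 33.6 in HPB-ALL and 26.3 in KOPTK1. ISG20, an RNA exonuclease, was level at 3.48 and 3.44, with a log2 difference of 0.02 that became -0.04 after centering.

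PARP14 and the PARP9-DTX3L pair act in ADP-ribosylation and ubiquitination. All 3 were well expressed, and their averages were somewhat higher in KOPTK1. PARP14 stood at a mean RPKM of 23.8 in HPB-ALL and 39.1 in KOPTK1. The partners that share a promoter differed little between the lines, with DTX3L at 24.8 and 28.3 and PARP9 at 7.52 and 10.3.

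The 7 remaining induced genes differed in both directions. IFI44 was 2.89-fold higher in KOPTK1, at 24.8 against 8.56, beside its neighbor IFI44L described above. LGALS3BP, a secreted galectin-binding glycoprotein, stood at 32.1 in HPB-ALL and 51.9 in KOPTK1, IFI35 at 8.23 and 16.3, and IFI6, a mitochondrial and endoplasmic reticulum protein, at 28.1 and 30.7. IFI27 was 2.32-fold higher in HPB-ALL, at 1.499 against 0.647, and its KOPTK1 average stands for about 13.99 reads per library under the assumption above. XAF1, a pro-apoptotic antagonist of XIAP, was 2.23-fold higher in HPB-ALL, at 21.96 against 9.87. It shares 69.9% of its exon bases with PRAL, so this level is uncertain.

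Several of these genes lie next to one another, and the neighbors did not always differ alike. IFI44L and IFI44 lie 3685 bases apart on chromosome 1, with log2 differences (HPB-ALL minus KOPTK1) of -5.71 and -1.53. MX2 and MX1 lie 11571 bases apart on chromosome 21, with -3.05 and -5.79. HERC6 and HERC5 (14005 bases apart on chromosome 4) had -1.66 and -1.08, and SAMD9 and SAMD9L (12031 bases apart on chromosome 7) had -0.73 and -1.34. These 4 pairs were higher in KOPTK1 at both genes. In the IFIT cluster on chromosome 10, the log2 difference was -0.53 for IFIT2, -0.98 for IFIT3, -0.84 for IFIT1 and 0.02 for IFIT5, whose gene begins 8099 bases beyond the end of IFIT1. IFITM2 and IFITM1, at 1.43 and -1.06, were the pair of direct neighbors in which both differed by over 1 and in opposite directions.

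**Figure D3:**
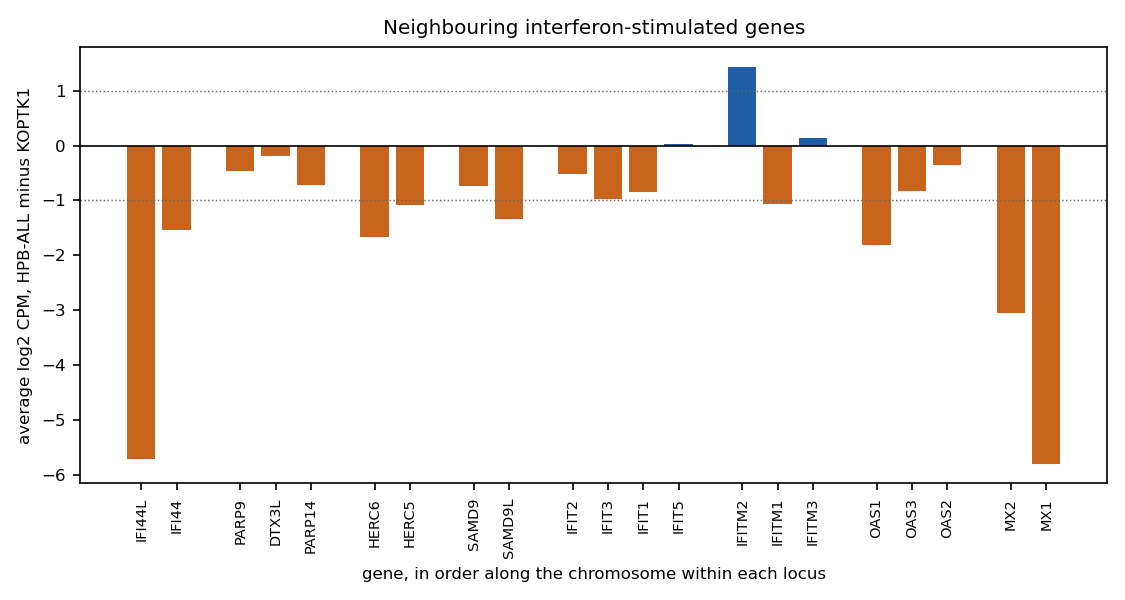
Difference of the average log2 CPM (y axis, HPB-ALL minus KOPTK1) for interferon-stimulated genes that lie next to one another, in chromosomal order within each locus; dotted lines mark a difference of 1. Bars below 0 are higher in KOPTK1, and IFITM2 at 1.43 beside IFITM1 at -1.06 is the locus that splits.

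Genes with the response element and genes without it both had lower averages in HPB-ALL at the median. The 23 genes with a match had a median log2 difference of -0.71, and 17 of them had the higher average in KOPTK1. The 11 genes with a window and no match had a median of -0.57, and 8 of them were higher in KOPTK1. Over 1 in size toward KOPTK1 were 6 of the 23 genes with the element and 3 of the 11 without. Toward HPB-ALL there was 1 of each. The backgrounds for a size over 1 were 5.71% toward KOPTK1 and 4.06% toward HPB-ALL. They cover protein-coding genes that reached a mean RPKM of 1 in either line, with or without a promoter window. By any amount, 43.4% of these protein-coding genes were higher in KOPTK1. MX1, IFI44L and IFI27, with the element, and OAS1, without it, reached the minimum mean RPKM of 1 in 1 line only. The element says only that these letters are in the window.

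Outside the induced set, 49 genes of the interferon pathway were read in the same way, and 32 of them reached a mean RPKM of 1 in at least 1 line. None of the 10 interferon genes did: the highest was IFNB1, at 0.421 in HPB-ALL and 0.389 in KOPTK1, and IFNA1 was at the lowest value of the table in HPB-ALL. The chains of the type I receptor were at close levels, with IFNAR1 at 21.7 and 21.3 and IFNAR2 at 22.7 and 21.8. Of the interferon gamma receptor, IFNGR1 stood at 12.85 and 13.004 and IFNGR2 at 9.69 and 7.37. IL10RB, a chain shared by the type III and IL-10 receptors, was 1.72-fold higher in KOPTK1, at 18.3 against 10.7, while IFNLR1, the chain specific to type III interferon, was below 1 in both (0.621 and 0.742). All 7 genes of signal transduction reached 1. JAK1 stood at 26.9 in HPB-ALL and 22.1 in KOPTK1, and TYK2 at 30.8 and 32.8.

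Across the 32 pathway genes the median log2 difference was -0.05, and 3 (9.38%) were over 1 higher in KOPTK1 and 1 (3.12%) in HPB-ALL. These shares lie near the backgrounds of 8.11% and 3.81% of genes (5.71% and 4.06% of protein-coding genes), so the genes are named as a description only. The 3 were SOCS1 and SOCS3, which inhibit JAK kinases and are induced by cytokines, and TLR3, an endosomal receptor of double-stranded RNA. SOCS1 stood at a mean RPKM of 1.53 in HPB-ALL and 4.77 in KOPTK1, SOCS3 at 1.25 and 2.87, and TLR3 at 0.823 and 2.24. TLR3 reached the minimum through KOPTK1 alone. TBK1, the kinase that phosphorylates IRF3 downstream of several sensors, was 3.16-fold higher in HPB-ALL, at 12.9 against 4.08. Of the DNA sensors in this list, CGAS (0.202 and 0.138) and AIM2 (0.191 and 0.244) were below 1 in both lines, whereas TLR9 reached it in both (1.24 and 1.75). ZBP1 (0.0696 and 0.152) was also below 1 in both. The adaptors STING1 (17.3 and 12.2) and MAVS (18.8 and 28.2) were above 10.

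**Figure D4:**
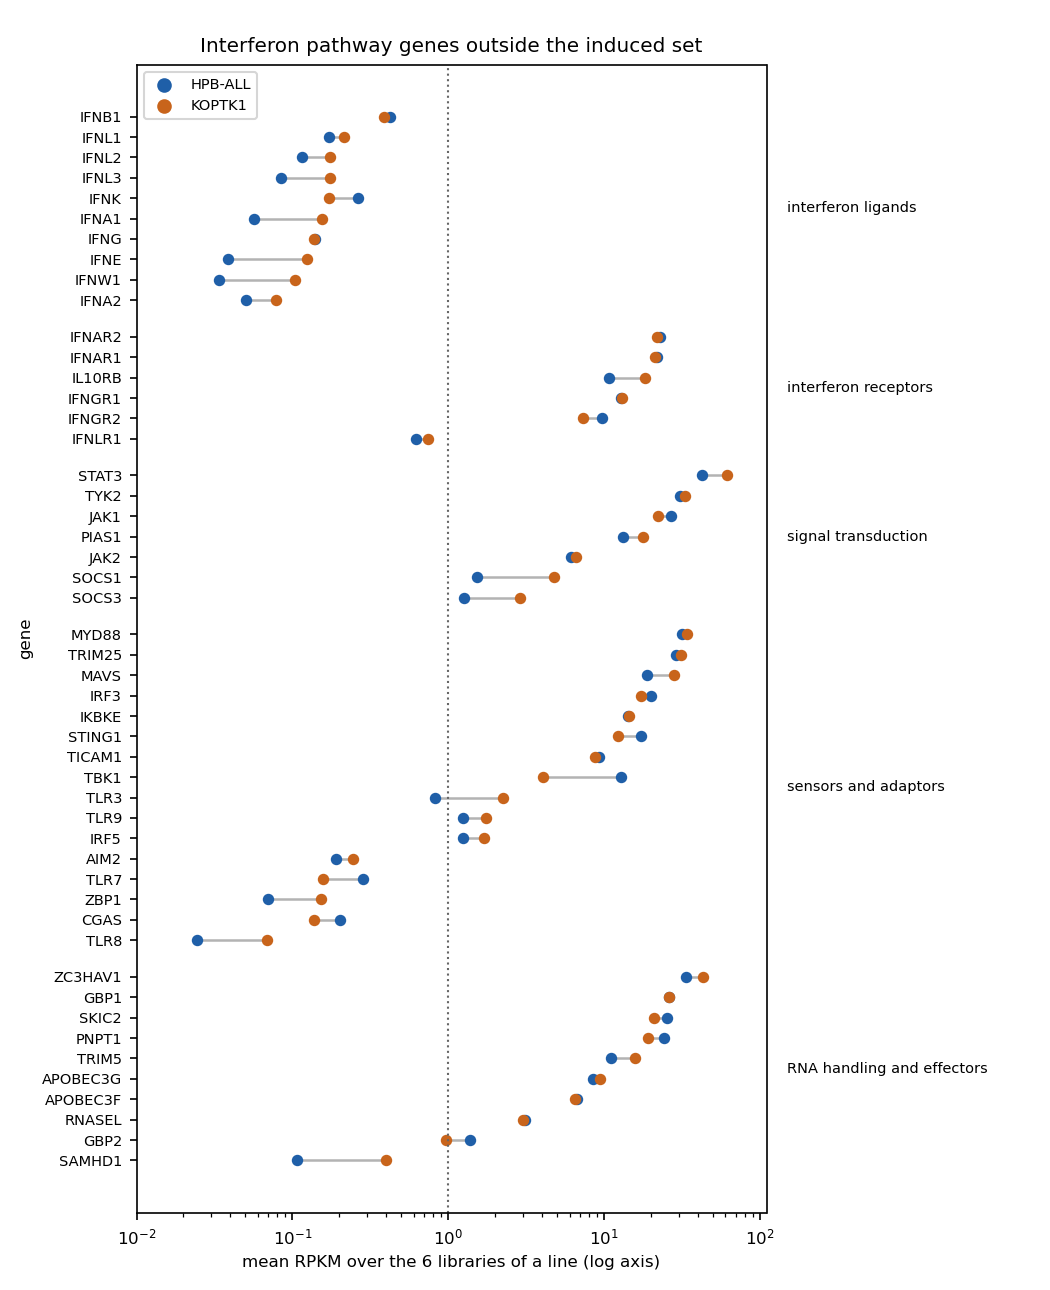
Average level of 49 interferon pathway genes outside the induced set in HPB-ALL (blue) and KOPTK1 (orange), grouped by role. The x axis is the average level of a line (mean RPKM, 6 libraries) on a log scale with a dotted line at 1; all 10 interferon genes lie below it, and TBK1, SOCS1, SOCS3 and TLR3 show the widest gaps among genes that reach 1.

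Both lines carried the markers of their lineage. All 10 T-lineage markers reached a mean RPKM of 1 in each line, with summed levels of 1010 in HPB-ALL and 1033 in KOPTK1, and CD2 (13.7 and 47.8) was the single one that differed by over 1. None of the 4 myeloid and none of the 4 epithelial markers reached 1. CLEC4C and LILRA4, which define plasmacytoid dendritic cells, the main source of type I interferon in blood, were at most 0.129 in either line, while IL3RA, which other cells also express, stood at 4.94 and 9.46. Of the 3 B cell markers, CD79A stood at 43.3 and 16.1, and MS4A1 and PAX5 were at most 0.0887. Of the 3 fibroblast markers, COL1A1 stood at 1.40 and 1.15 and the other two were below 0.1. The part of these differences in the interferon-stimulated genes was not tested. SHQ1, the target of the knockdown, had a mean RPKM of 59.5 in HPB-ALL and 43.3 in KOPTK1, which averages depleted and control cells and so gives no check of the knockdown.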

How the data were processed

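RNA-Seq was carried out on rRNA-depleted total RNA from HPB-ALL and KOPTK1 cells, with 3 Control and 3 shSHQ1 libraries per line. The authors deposited 1 table per line with 58288 Ensembl genes, their coordinates and exon length, and an average log2 CPM over the 6 libraries, which is the measurement used. Per the labels, the submitters' processing notes name hg38, Trimmomatic 0.36, STAR 2.5.4b, Picard 2.18.7, featureCounts 1.6.2 and edgeR 3.22.3, without roles; the coordinates of all 43 genes overlapped their GRCh38 positions. The 12 columns of single libraries, headed 1 to 12, match no label and were not used in any step. The columns with the authors' own fold changes, F statistics, p-values and adjusted p-values hold their comparison and were not used either. The test of shSHQ1 against Control planned on single libraries could therefore not be run, and depth per library is not reported.

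The average was converted to CPM, divided by exon length per 1000 bases (mean RPKM), and compared between lines on the log2 scale. Genes that reached a mean RPKM of 1 in either line are given with their values, and differences over 1 are named. The genes and lists were chosen with earlier results of these data known. In the lists of pathway genes and cell type markers, 2 genes are not reported here and were left out of the counts. Symbols were matched for 95.9% of identifiers. Promoter windows came from RefSeq (GRCh38.p14). Steps were run in Python 3.11.15 with pandas 2.3.3 and numpy 2.4.6. Only the calling of differences over 1 was tried on simulated data, with known differences well over that limit. The other steps were not simulated.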

Additional observations from a re-analysis of the deposited data

How the results depend on the processing

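With a minimum mean RPKM of 10 in place of 1, 17 genes reached it in HPB-ALL and 27 in KOPTK1, fewer by construction. A minimum of 0.5 gave 40 and 43, and an average log2 CPM of at least 0 gave 41 and 42. Centering the tables on the median of protein-coding genes, a shift of 0.06, raised the number over 1 higher in KOPTK1 from 11 to 14, by adding IFI35, IFIT3 and DHX58, and left 3 higher in HPB-ALL. A minimum in both lines gave 8 and 2, and no minimum gave 11 and 3. The median difference stayed between -0.72 and -0.61. Subtracting the value of genes at the floor of each table, an alternative chosen after seeing the data, left these counts as they were and moved IFI44L from -5.71 to -5.92 and MX1 from -5.79 to -5.89. No paired analysis was possible because the columns of single libraries carry no replicate number from the labels; the low-value filter, pseudocount, second count test, replicate block and omission of single libraries planned for shSHQ1 against Control were not run. Levels near the floor (IFI44L and MX1 in HPB-ALL, IFI27 in KOPTK1) rest on few reads.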
